A study of Sus scrofa with 42 samples.

Results

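The genes of the mitochondrial genome were followed through single blastomeres of pig embryos. All genes whose position in the deposited table lay on the mitochondrial chromosome were taken, which gave 24 of the 15351 genes. They are 13 mRNAs, 9 tRNA genes and 2 rRNA genes. Of these, 21 reached an FPKM (fragments scaled by gene length and by the total of the cell) of at least 1 in at least 3 cells and entered the tests, and the tRNA genes for alanine, cysteine and tyrosine, above 0 in only 3, 2 and 2 cells, did not. The study sequenced 42 single cells of 20 embryos that came either from in vitro fertilization (IVF) or from parthenogenetic activation (PA), in which electric pulses start development of an oocyte without sperm. The PA oocytes were then kept with 6-dimethylaminopurine and cytochalasin B, which the IVF oocytes did not receive. Both methods started from oocytes of gilt ovaries that had been matured in vitro, and all embryos were then cultured in PZM-3 medium. Each method had 3 1-cell embryos, 3 2-cell embryos with 2 blastomeres each, 3 4-cell embryos with 9 blastomeres in all, and 3 blastomeres of 1 8-cell embryo. No oocyte or embryo grown in vivo was analysed here. An embryo counted as 1 replicate and its value was the mean over its blastomeres, so 8-cell values rest on 1 embryo per method. The labels do not say whether embryos of 1 group came from the same batch of oocytes, so the p-values measure the spread between these embryos.

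The mitochondrial genome is a small circle that is inherited from the oocyte. It codes for subunits of the respiratory chain and for the rRNAs and tRNAs used to translate them within the organelle. Both strands are transcribed into long RNAs, most mRNAs and rRNAs are flanked by tRNAs, and cutting at the tRNAs sets the mature transcripts free. All other proteins of the mitochondrion, including its RNA polymerase, come from nuclear genes.

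By RefSeq (Sscrofa11.1, a mitochondrial genome of 16613 bases), all 24 genes matched an annotated gene in coordinates and strand, with 16 on the plus strand and 8 on the minus strand. The minus strand carried ND6 and 7 of the 9 tRNA genes. The following sequences are shown because the results turn on them. The tRNA genes for serine (MT:8059-8129, minus strand, just behind COX1), tryptophan (MT:6129-6196, plus strand, directly behind ND2) and proline (MT:16550-16613, minus strand, at the end of the numbered circle) are only 71, 68 and 64 bases long. ATP8 (MT:8959-9162, plus strand) shares its last 43 bases, in capitals, with the start of ATP6.
tRNA-Ser: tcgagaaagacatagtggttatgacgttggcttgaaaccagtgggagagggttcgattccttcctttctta
tRNA-Trp: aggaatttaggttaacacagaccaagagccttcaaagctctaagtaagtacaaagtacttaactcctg
tRNA-Pro: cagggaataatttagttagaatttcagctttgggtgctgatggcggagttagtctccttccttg
ATP8: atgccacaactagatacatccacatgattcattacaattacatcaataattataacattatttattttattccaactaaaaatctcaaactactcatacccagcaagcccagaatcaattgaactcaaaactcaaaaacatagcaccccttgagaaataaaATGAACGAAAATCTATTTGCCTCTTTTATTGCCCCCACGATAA

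Members that touch their neighbours cannot be fully told apart. ATP8 and ATP6 share 43 bases, ND4L and ND4 share 7, and ND5 and ND6 share 17 on opposite strands. The strand counted and the handling of fragments over several genes are not given in the sources used here, so a fragment from the other strand cannot be told from one of a minus-strand gene. Stretches of the nuclear genome with at least 98% identity over at least 100 bases covered all of the tRNA genes for glutamine, tryptophan, alanine, cysteine and tyrosine, 96.1% of ATP8, 52.6% of the 12S rRNA and 55.1% of the 16S rRNA. They covered 43.7% of COX1, 39.2% of COX2, 34.5% of ND2, 17.3% of ND1 and 5.14% of ATP6. None of ND3, ND4, ND4L, ND5, ND6, CYTB and COX3 lay in them. Less similar copies covered these genes in full, the best with identities from 90.8% (ND4L) to 94.9% (ND6). The part of these copies in the results was not tested.

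Depth was no limit for the abundant members. When the smallest step of a cell was taken as 1 fragment, all 801 member values above 0 came out as whole fragments within 0.02, and each cell held between 131758 and 3462710 mitochondrial fragments, which are amplified copies and not independent molecules. Blastomeres 1-4 and 2-1 of the PA 4-cell group were nearly copies of blastomeres 1-2 and 2-1 of the PA 2-cell group (Pearson's r = 0.999 in both pairs, with 0.908 as the next highest), so results on PA 4-cell embryos are given with and without them where they differ. Which blastomere of a pair repeats the other is not given in the labels, and this setting left out only the 4-cell blastomeres. It leaves PA 4-cell embryo 1 with blastomere 1-3 alone. Of 10 oocyte genes, 8 were in the table and all 8 reached an FPKM of 1 in at least 3 cells. Their summed FPKM fell between 207 and 468 in IVF 2-cell blastomeres, between 210 and 1031 in IVF 4-cell and between 2.42 and 196 in IVF 8-cell blastomeres, and between 39.2 and 680 in PA 4-cell and between 0.497 and 79.1 in PA 8-cell blastomeres. The summed cumulus genes measured (2 of 8) stayed at or below 30.0, the sperm gene (1 of 7) at or below 9.02 and the blood genes (3 of 4) at or below 3.51. The part of other cells in the results was not tested.

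The 13 mRNAs differed widely in level. ATP6, the proton channel subunit of ATP synthase (complex V), held 32.5% of the summed mRNA FPKM when averaged over the 20 embryos, with a mean FPKM of 17749 and up to 51493 in a single cell. ND5 of complex I followed with 16.8% and COX1, the catalytic subunit of cytochrome c oxidase (complex IV), with 11.2%. ND2 held 9.80%, COX3 8.40%, CYTB (complex III) 7.17%, ND6 6.30% and COX2 5.97%. ND4 held 1.5%, and ND1, ND4L, ND3 and ATP8 held 0.256%, 0.0735%, 0.0630% and 0.00241%, respectively. Thus members of 1 complex lay far apart, since ND5 and ND3 are both complex I subunits and ATP6 and ATP8 both belong to complex V.

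ATP8 was nearly absent beside ATP6. Its mean FPKM was 1.33, it was listed above 0 in 18 of 42 cells, and its highest value came from 66 fragments in 1 cell, in 7 of the 18 cells from 1 to 3 fragments. In the other 24 cells it was listed at 0, where 3 fragments would give an FPKM between 0.363 and 1.47. How fragments on the shared bases were counted is not given in the sources used here. The rRNAs, which form the mitochondrial ribosome, were also low per length, at a mean FPKM of 507 for 16S and 63.1 for 12S, below that of 9 mRNAs and 10 mRNAs, respectively.

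Of the tRNA genes, the one for serine stood above all others. Its FPKM was never below 1939 and reached 21321, with a mean of 7940, which only ATP6 exceeded. This rank holds for FPKM and not for fragments. The lowest cell, IVF 1-cell-1, held 3386 fragments of it against 17279 of COX1. The highest, IVF 4-cell-3-1, held 30925 against 266959. The genes for glutamine (mean FPKM 1162), proline (475) and glutamic acid (209) were above 0 in every cell, the gene for tryptophan (6.67) in 14 cells and the gene for phenylalanine (1.16) in 6 cells. All 4 tRNA genes found in every cell lie on the minus strand, as do the 3 that were nearly absent. Minus-strand genes together made 24% ± 6.41 (SD, n = 20 embryos) of the mitochondrial FPKM but 4.61% ± 1.64 of the mitochondrial fragments, because FPKM divides by the short length of a tRNA gene.

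**Figure D1:**
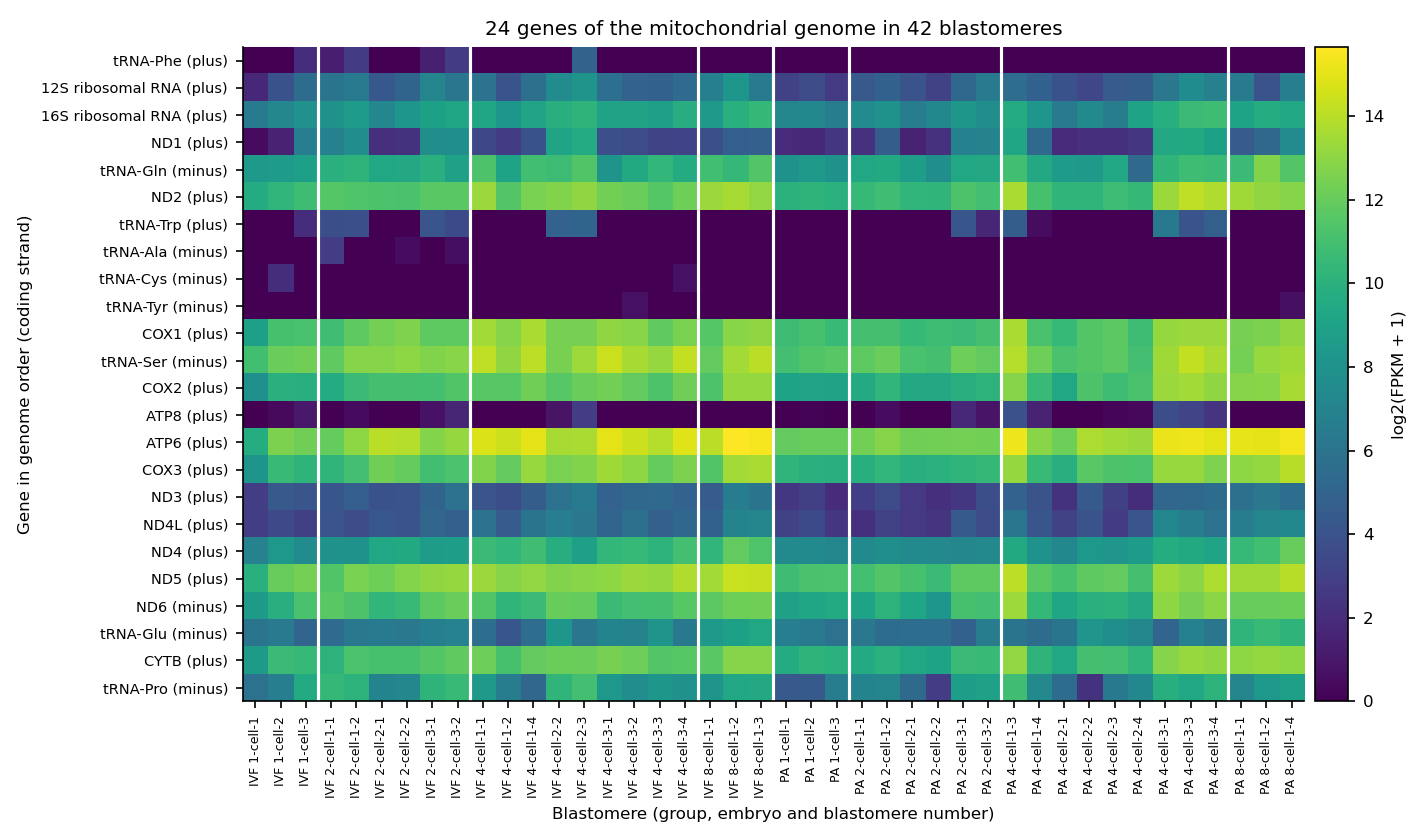
The heat map shows log2(FPKM + 1) of the 24 genes (rows, in genome order, with the coding strand) in each of the 42 blastomeres (columns, white lines between groups). ATP6 and the serine tRNA gene are bright in every column, ATP8 and most tRNA genes are dark, and the ND1 and tryptophan tRNA rows switch between embryos.

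As a share of all FPKM in an embryo, the 24 genes were higher at later stages in both methods. In IVF 1-cell embryos they took 6.07%, 17.1% and 19.2%, in 2-cell embryos 21.1%, 34.9% and 29.0%, in 4-cell embryos 47.7%, 33.5% and 42.5%, and in the 8-cell embryo 45.2%. The ranges of the 1- and 2-cell embryos did not overlap, while a 4-cell embryo at 33.5% lay below the highest 2-cell embryo. In PA embryos the shares were 13.2%, 14.1% and 13.1% at 1-cell, 16.7%, 14.3% and 19.3% at 2-cell, 46.7%, 21.3% and 60.6% at 4-cell and 47.1% at 8-cell stage. No ranges of neighbouring stages overlapped up to the 4-cell stage, but the 4-cell embryos spread widely and enclosed the 8-cell embryo. Without the near-repeat blastomeres PA 4-cell embryos 1 and 2 were at 63.0% and 23.3%. The summed FPKM of a cell ran from 107130 to 274616, and since FPKM are relative to each cell's own fragment total, more mitochondrial RNA and less nuclear RNA cannot be told apart.

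Sister blastomeres had similar shares in most embryos. The larger share of an embryo was less than 1.8 times the smaller in 12 of the 14 embryos with more than 1 blastomere. In PA 4-cell embryo 1, blastomere 1-3 had 63.0% and the near-repeat 1-4 had 19.96%, and PA 2-cell-1-2, which it repeats, had 18.3%. In the IVF 8-cell embryo, blastomere 1-1 had 26.9% and the others 52.3% and 53.6%. Blastomere 1-1 was also the shallowest cell of all, at 10012847 fragments against a median of 26682162.5, and its part in that difference was not tested.

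**Figure D2:**
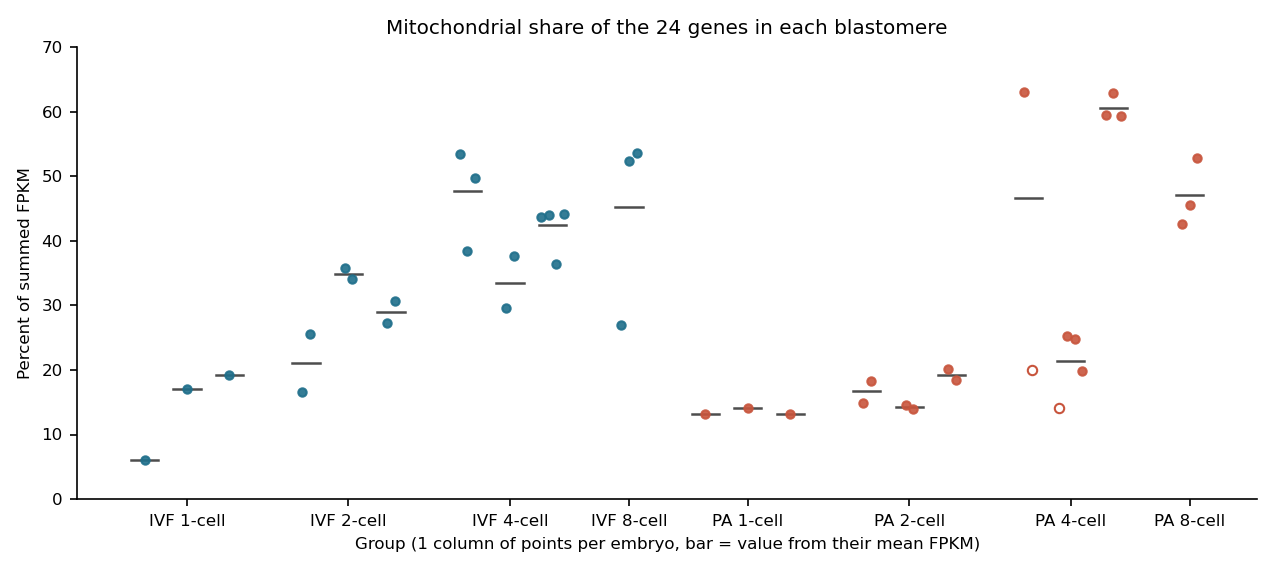
Each point is the percent of a blastomere's summed FPKM that fell on the 24 mitochondrial genes, with a column of points per embryo and a bar at the value from the mean FPKM of its blastomeres (IVF in blue, PA in red, the near-repeat blastomeres as open points). Shares ran from 6.07% to 63.0%, and the PA 4-cell embryos lie farther apart than those of any other group.

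Gene by gene, log2(FPKM + 1) was compared between adjacent stages by limma, and a gene was called at an adjusted p (Benjamini-Hochberg over 8116 genes) below 0.05 and an absolute log2 fold change of 1 or more. From the 1- to the 2-cell stage of IVF embryos, no member was called (0.00% of all genes were). All 21 members had positive changes, with a median of 1.25 against -0.11 over all genes, 7 of the 21 had an unadjusted p below 0.05 (2.66% of all genes), and in 9 the 2-cell embryos lay above the 1-cell embryos without overlap (3.54% of all genes). Of those with the lowest p, COX3 changed by 1.70 ± 0.55 (SE), ATP6 by 1.67 ± 0.59 and COX2 by 1.62 ± 0.54 on the log2 scale, each with an adjusted p of 1. The FPKM of COX3 were 269, 1490 and 1144 in the 1-cell and 1630, 4504 and 2129 in the 2-cell embryos, so that IVF 1-cell embryo 1 stood apart from the others at its stage. Without this embryo the changes were 0.94 ± 0.47 for COX3, 0.78 ± 0.47 for ATP6 and 0.96 ± 0.51 for COX2. The median of members was then 0.80 (-0.22 over all genes), with 20 positive changes (2775 of all 8051 genes). In this setting 0 members had an unadjusted p below 0.05, beside 2.61% of all genes. In PA embryos the same step gave a median change of 0.49 over members (-0.09 over all genes), no called member (0.0986% of all genes) and 0 members at an unadjusted p below 0.05 (4.85%). The interaction of method with this step called no gene at all, and among members the lowest unadjusted p was that of COX3 (1.59 ± 0.78, adjusted p = 1).

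From the 2- to the 4-cell stage, the median change of members was 0.80 in IVF embryos (-0.23 over all genes) and 1.62 in PA embryos (-0.17 over all genes), and no member was called in either (1.11% and 0.394% of all genes were). In IVF embryos 17 members had positive changes, with the lowest p for ND4 of complex I (1.46 ± 0.49, adjusted p = 0.132) and COX3 (1.42 ± 0.55, adjusted p = 0.185), and 2 of the 21 members had an unadjusted p below 0.05 (17.6% of all genes). In PA embryos 20 members had positive changes and 13 an unadjusted p below 0.05 (10.8% of all genes). COX2, the subunit that takes electrons from cytochrome c, changed by 2.26 ± 0.54 (adjusted p = 0.0750), with 1005, 694 and 1000 FPKM in the PA 2-cell and 4277, 1790 and 10033 in the 4-cell embryos. These groups did not overlap, nor did those of ATP6, COX1, COX3 and ND4, and the share of all genes whose embryos rose without overlap was 3.86%.

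Without the near-repeat blastomeres 1-4 and 2-1, 4 members rose at this step in PA embryos (1.16% of all genes were called higher). They were COX2 (2.59 ± 0.56, adjusted p = 0.00706), COX3 (2.41 ± 0.57, adjusted p = 0.0136), CYTB, the cytochrome b of complex III (2.44 ± 0.61, adjusted p = 0.0174), and ATP6 (2.23 ± 0.61, adjusted p = 0.0287). In this setting PA 4-cell embryo 1 rests on blastomere 1-3 alone, which had the highest mitochondrial share of all cells (63.0%). Scaling each cell by its median ratio over nuclear genes, which moved the median of all genes at this step to 0.27, called 18 members with a median of 5.22 (7.22% of all genes were called higher). When each cell was scaled to the same sum of the 13 mRNAs, the median change of members was -0.07 (-0.55 over all genes) and none was called. This scaling takes out any change that the mRNAs share, so a small median of members follows from it. It shows only changes of a member relative to the mRNA sum. The interaction of method with the 2- to 4-cell step called no gene.

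From the 4- to the 8-cell stage, 2 members rose in PA embryos, ND4 and the tRNA gene for glutamic acid (6.81% of all genes were called higher). By the unadjusted p, 3 members fell below 0.05 (20.7% of all genes). Glutamic acid tRNA FPKM were 54.2, 179 and 74.4 in the PA 4-cell embryos and 1304 in the 8-cell embryo, a change of 3.85 ± 0.86 (adjusted p = 0.00664). In 8 of the 21 members and 2039 of all 8116 genes, the 8-cell embryo lay above all PA 4-cell embryos. The 3 blastomeres of the 8-cell embryo, which are sisters and not replicates, held 1197, 1535 and 1180 FPKM of the glutamic acid tRNA gene. The highest of the 9 blastomeres of the 4-cell stage held 284. In IVF embryos this gene was at 37.7, 182 and 152 in the 4-cell and 491 in the 8-cell embryo (2.26 ± 0.86, adjusted p = 0.138).

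ND4 FPKM were 489, 291 and 707 in the PA 4-cell embryos and 2523 in the 8-cell embryo, a change of 2.44 ± 0.70 (adjusted p = 0.0304). Its blastomeres ran from 159 to 832 at the 4-cell stage and from 1432 to 4196 among the sisters of the 1 8-cell embryo. Without the near-repeat blastomeres the change was 2.19 (adjusted p = 0.0741) and no longer called, and scaled to the sum of the mRNAs it was 1.38 ± 0.84 (adjusted p = 0.635). Without PA 4-cell embryo 2 it was 2.10 (adjusted p = 0.0654), and over all other settings between 1.38 and 2.74 with an adjusted p of 0.0146 to 0.635. The glutamic acid tRNA gene kept its call without these blastomeres (3.68 ± 0.93, adjusted p = 0.0137, with 8.22% of all genes called higher) but not relative to the mRNA sum (2.79 ± 1.28, adjusted p = 0.394). When only the compared groups were fitted, neither gene was called (adjusted p = 0.215 for the tRNA gene and 0.297 for ND4). The median change was 0.75 over all 21 members in PA (-0.15 over all genes), and in IVF it was 0.56 (-0.38 over all genes) with no member called (6.97% of all genes were) and 1 at an unadjusted p below 0.05 (19.4%). The interaction of method with this step called no member (2.86% of all genes were), and it was -1.28 ± 0.98 for ND4 and -1.58 ± 1.22 for the glutamic acid tRNA gene (adjusted p = 0.715 and 0.715), so a difference between the methods was not shown. The lone 8-cell embryo was taken to vary like embryos of the other groups.

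**Figure D3:**
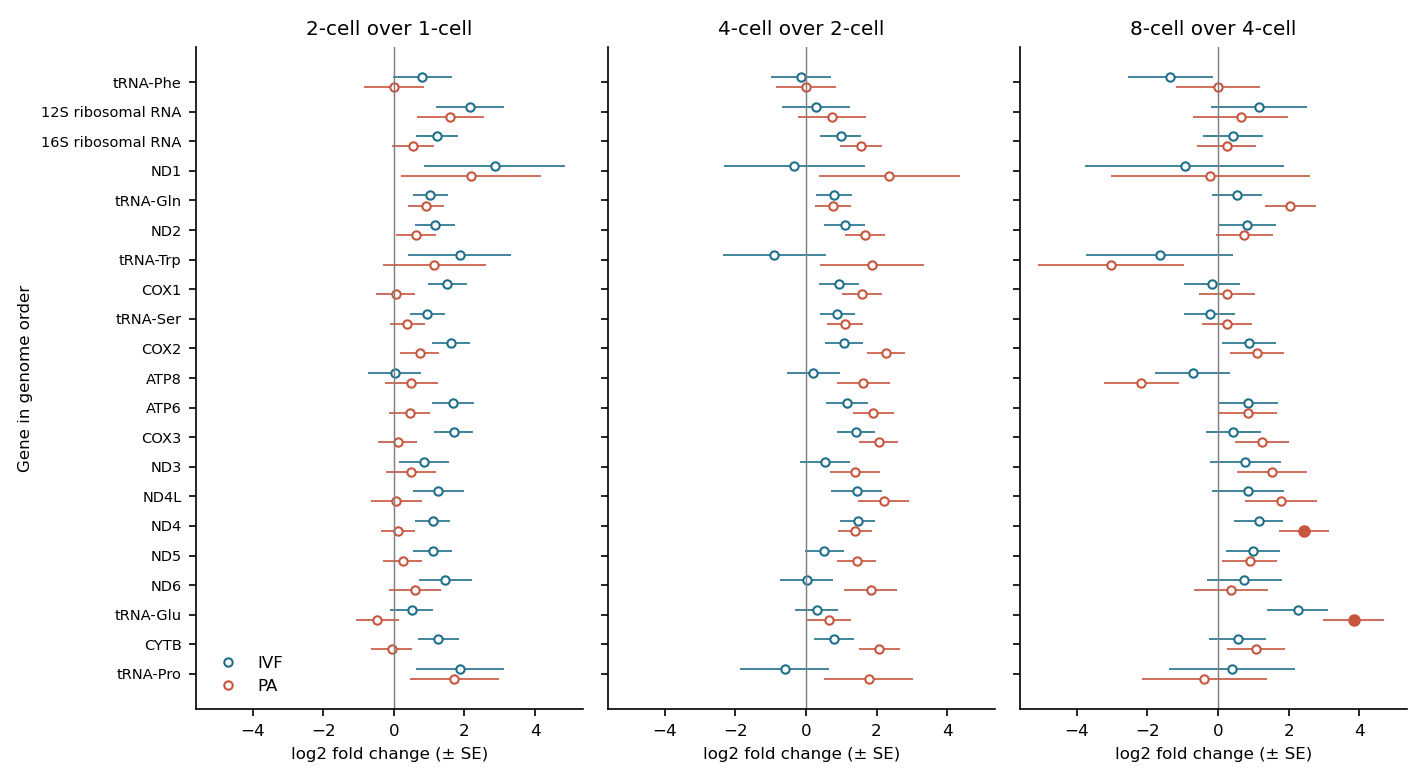
Points are log2 fold changes of the 21 tested members (rows in genome order) for each step between stages, with bars of 1 SE from limma, in IVF (blue) and PA (red) embryos. Filled points are called, which were ND4 and the glutamic acid tRNA gene in PA embryos at the 8-cell stage, and most open points lie right of 0 at the first 2 steps.

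No member was called between IVF and PA embryos at the 1-, 2- or 4-cell stage, where 0.0493%, 0.00% and 0.554% of all genes were called. The number of members with an unadjusted p below 0.05 was 0 at 1-cell (4.09% of all genes), 5 at 2-cell (5.43%) and 1 at the 4-cell stage (1134 of the 8116 genes). At the 2-cell stage 20 of 21 members had higher values in IVF embryos, with a median of 1.17 against 0.25 over all genes, and 9 did not overlap (12.5% of all genes were higher without overlap). Those with the lowest unadjusted p were ND4 (1.23 ± 0.49, adjusted p = 0.861), ND3 (1.67 ± 0.71, adjusted p = 0.888) and ND5 (1.25 ± 0.55, adjusted p = 0.888). ND4 was at 256, 690 and 407 FPKM in IVF and 201, 174 and 158 in PA 2-cell embryos. At the 4-cell stage the median of members was 0.24 (0.23 over all genes) and turned to -0.06 when nuclear genes were scaled to the same sum and to -2.42 under the median ratio, so no direction is given there. The PA 4-cell embryos spread around the IVF ones, with COX2 at 4277, 1790 and 10033 FPKM against 3718, 3711 and 4131.

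The tRNA genes were lowest relative to the mRNAs in the 8-cell and PA 4-cell embryos. Their sum was 3.33% ± 1.18 of all FPKM in IVF 1-cell, 5.68% ± 0.445 in 2-cell and 7.95% ± 1.55 in 4-cell embryos (SD, n = 3 each) and 5.33% in the 8-cell embryo, while the mRNAs in the same order took 10.7% ± 5.89, 22.3% ± 6.58, 32.9% ± 5.87 and 39.5%. In PA embryos the tRNA genes took 2.58% ± 0.304, 3.46% ± 0.930, 5.87% ± 2.93 and 5.70%. On the log2 scale the ratio of tRNA to mRNA FPKM was -1.52 ± 0.57, -1.93 ± 0.34 and -2.05 ± 0.08 in IVF 1-, 2- and 4-cell embryos and -2.89 in the 8-cell embryo. Without IVF 1-cell embryo 1, at -0.89, the other two 1-cell embryos averaged -1.84. In PA embryos the ratio was -2.06 ± 0.21, -1.95 ± 0.28 and -2.68 ± 0.16, and -2.85 in the 8-cell embryo, so the 2-cell mean lay above the 1-cell mean. PA 4-cell embryo 2 was at -2.85 with the near-repeat blastomere and at -2.99 without it, below both 8-cell embryos. The serine tRNA gene made most of the sum, with 1939, 4244 and 4954 FPKM in IVF 1-cell, 14800, 8167 and 15549 in 4-cell and 10484 in 8-cell embryos.

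The ratio of the rRNAs to the mRNAs did not separate the stages. The log2 ratio of their summed FPKM was -6.21 ± 0.59, -6.34 ± 0.88 and -6.37 ± 0.89 in IVF 1-, 2- and 4-cell embryos (SD, n = 3 each), and -6.56 in the 8-cell embryo. In PA embryos it was -6.47 ± 0.36, -6.17 ± 0.35, -6.52 ± 0.41 and -7.08. The means of the 1-, 2- and 4-cell groups differed by less than the spread between embryos. The lowest PA 4-cell embryo was at -6.91, above the 8-cell embryo, but at -7.14, below it, without its near-repeat blastomere.

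By respiratory complex, the share of complex I in the mRNA sum was 44.8% ± 8.51 in IVF 1-cell embryos and 30.8% ± 6.36 in IVF 4-cell embryos (SD, n = 3 each), and 32.2% ± 1.97 and 29.9% ± 5.98 in PA embryos. Complex V, which is almost all ATP6, took 24.7% ± 6.50 and 33.9% ± 8.48 in IVF and 32.4% ± 1.42 and 36.8% ± 5.15 in PA embryos at the same stages. The IVF 1- and 4-cell embryos overlapped in both shares. Complex IV lay between 22.3% and 28.7% and complex III between 5.85% and 8.36% in the means of all 8 groups.

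ND1 varied far more between embryos than ND2. In the embryos it ranged from 0.383 to 676 FPKM, while ND2, the next mRNA on the same strand, ranged from 800 to 14064. Its log2 ratio to ND2 was -11.03, -9.34 and -4.13 in the IVF 1-cell embryos, -4.11, -9.33 and -3.89 in the 2-cell embryos, -9.30, -3.48 and -8.73 in the 4-cell embryos and -8.92 in the 8-cell embryo. In PA embryos it was between -8.83 and -7.77 at 1-cell, -6.93, -8.73 and -4.22 at 2-cell, -4.55, -8.61 and -4.48 at 4-cell and -6.74 at 8-cell stage. Low and high embryos thus stood side by side within a stage and method. The ratio showed no relation with stage by exact permutation of the 10 embryos (Spearman's rho = 0.35, p = 0.327, Pearson's r = -0.01, p = 0.973 in IVF and rho = 0.47, p = 0.175, r = 0.45, p = 0.189 in PA, adjusted p = 0.403 and 0.280 for rho and 0.973 and 0.417 for r over 16 relations). Without the 8-cell embryo and 1 4-cell embryo, r was -0.06 in IVF and 0.43 in PA. The mean difference between IVF and PA over the 1-, 2- and 4-cell stage was -0.07 (two-sided exact permutation p = 0.951, adjusted p = 0.951 over 8 measures).

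Sister blastomeres were mostly close in their ND1 level. The 2 blastomeres of IVF 4-cell embryo 2 had 566 and 787 FPKM, while the 7 blastomeres of IVF 4-cell embryos 1 and 3 had 5.66 to 14.1. The 3 of PA 4-cell embryo 3 had 688, 725 and 482, and the 4 of embryo 2 had 2.73 to 4.65. In PA 4-cell embryo 1, blastomere 1-3 had 607 and the near-repeat 1-4 had 39.5. Within an embryo the log2 ratio of ND1 to ND2 spanned 0.10 to 1.38 in 12 of the 14 embryos. The exceptions were PA 2-cell embryo 1 (2.25) and the PA 8-cell embryo (3.79). In the former, blastomere 1-2, which PA 4-cell-1-4 nearly repeats, had 23.4 FPKM and its sister 3.76. In the latter, blastomere 1-4 had 190 FPKM and the others 21.2 and 37.7.

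Other members went with ND1. The tryptophan tRNA gene, which lies directly behind ND2, was above 0 in 14 cells of 7 embryos, where ND1 ran from 39.5 to 787 FPKM (median 217). The lowest ND1, 39.5, was that of the near-repeat PA 4-cell-1-4, with 1 fragment of the tRNA gene. PA 2-cell-1-2, which this blastomere nearly repeats, held 0 fragments at an ND1 of 23.4. The other 13 cells held more than 3 fragments each, at an ND1 of 101 or more. In the 28 cells in which the tRNA gene was listed at 0, ND1 ran from 0.383 to 190 (median 5.17), and 3 fragments would give the tRNA gene an FPKM of 1.09 to 4.41 in those cells. The phenylalanine tRNA gene was above 0 in 6 cells, all of them IVF, with ND1 of at least 101. It was listed at 0 in the other 36 cells, in which ND1 reached 725 FPKM, among them every PA cell. Across the 40 blastomeres without the near-repeats, with each gene taken relative to the mRNA sum on a log2 scale, Pearson's r with ND1 was 0.93 for the tryptophan tRNA gene, 0.78 for ATP8, 0.77 for ND6, 0.72 for the proline tRNA gene and 0.66 for the 12S rRNA, and -0.65 for ND4 and -0.61 for ATP6. For the 16S rRNA and ND2, the nearest plus-strand members to either side of ND1, r was 0.51 and 0.49. These values describe cells that share embryos and a common denominator. Spearman's rho over the 20 embryos was 0.85 for the tryptophan tRNA gene, 0.52 for ND2, 0.50 for the 16S rRNA and -0.75 for ND4.

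ND6, the only mRNA of the minus strand, was compared with ND5, which overlaps its end from the other strand. The log2 ratio of ND6 to ND5 ranged from -2.25 to -0.56 over the 20 embryos, with means of -1.62 ± 0.52, -1.26 ± 0.74 and -1.76 ± 0.83 in IVF and -1.81 ± 0.16, -1.45 ± 0.67 and -1.06 ± 0.66 in PA 1-, 2- and 4-cell embryos (SD, n = 3 each), and -2.0 and -1.58 in the 8-cell embryos. No relation with stage passed the exact permutation test (rho = -0.18, p = 0.617, r = -0.21, p = 0.550 in IVF and rho = 0.48, p = 0.159, r = 0.39, p = 0.259 in PA, adjusted p = 0.705 and 0.280 for rho and 0.677 and 0.417 for r). Without the 8-cell and 1 4-cell embryo r was -0.34 and 0.43. The mean difference between IVF and PA was -0.11 (two-sided exact permutation p = 0.726, adjusted p = 0.90).

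**Figure D4:**
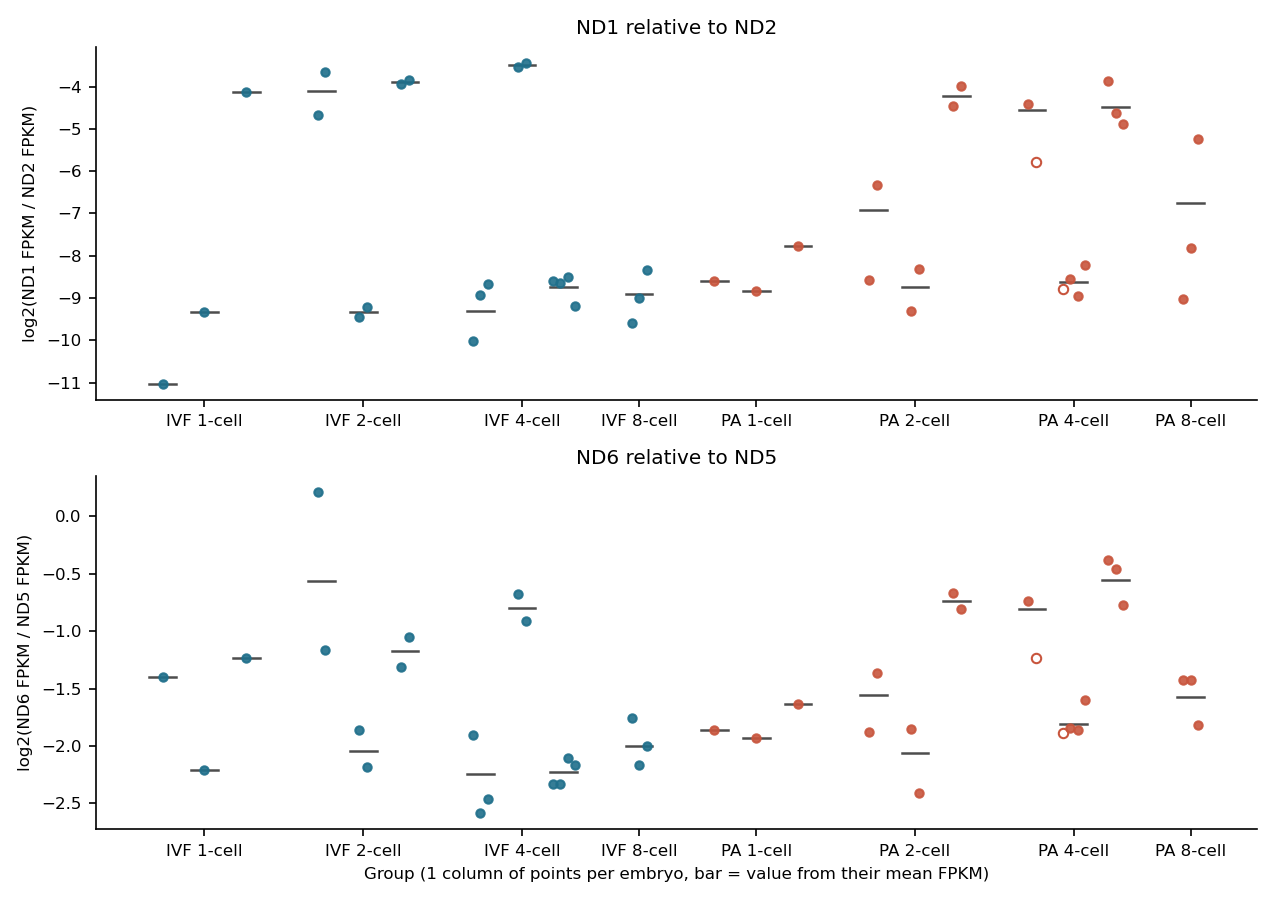
The log2 ratio of ND1 to ND2 FPKM (top) and of ND6 to ND5 FPKM (bottom) is drawn for each blastomere, in a column per embryo with a bar at the value from mean FPKM (IVF in blue, PA in red, near-repeat blastomeres as open points). In the top panel most sisters lie together near -4 or near -9, except in PA 2-cell embryo 1, PA 4-cell embryo 1 and the PA 8-cell embryo, and in the bottom panel ND6 is at or above 0 in 1 IVF 2-cell blastomere only, at 0.21.

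The spread of mitochondrial mRNAs among sister blastomeres was smaller than that among embryos. The pooled SD of log2(FPKM + 1) among blastomeres of 1 embryo had a median of 0.59 over the 13 mRNAs (14 embryos, 22 degrees of freedom), against 0.80 among embryos of 1 group (12 degrees of freedom), and it was the smaller of the pair in 13 of 13 mRNAs. Among 140 nuclear genes with a mean FPKM of at least 100 the medians were 1.86 and 0.77, and the sister SD was the smaller in 4 of the 140 (2.86%), and over all 8116 genes in 25.7%. Without the near-repeat blastomeres the medians of the mRNAs were 0.44 and 0.82, with 13 of 13 again, and those of the abundant nuclear genes were 1.81 and 0.87, with 8 of 140. The stages behind the SDs differ, since the sister SD pools 2-, 4- and 8-cell embryos and the embryo SD the 1-, 2- and 4-cell groups. The 13 mRNAs also vary with the mitochondrial share of a cell, so they are not separate observations. Embryo values are means over blastomeres for both kinds of gene. These SDs are a description without a test.

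Relative to the mRNA sum, which takes out the overall mitochondrial share, the median sister SD fell to 0.37 and the embryo SD to 0.48, and the sister SD was the smaller in 10 of 13. Under this scaling the medians of the abundant nuclear genes were 1.96 and 1.18. Their sister SD was the smaller in 18 of 140 (12.9%), and that of all genes in 41.9%. Without this scaling, on log2(FPKM + 1), ND1 had the widest gap, with an SD of 0.91 among sisters and 2.99 among embryos, followed by the tryptophan tRNA gene with 0.81 and 2.08. The glutamine tRNA gene went the other way, at 0.95 among sisters and 0.64 among embryos, and the glutamic acid tRNA gene had 0.73 for both. By stage, the median sister SD of the mRNAs was 0.38 in 2-cell, 0.70 in 4-cell and 0.65 in 8-cell embryos, and that of the abundant nuclear genes was 0.48, 2.22 and 1.74.

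**Figure D5:**
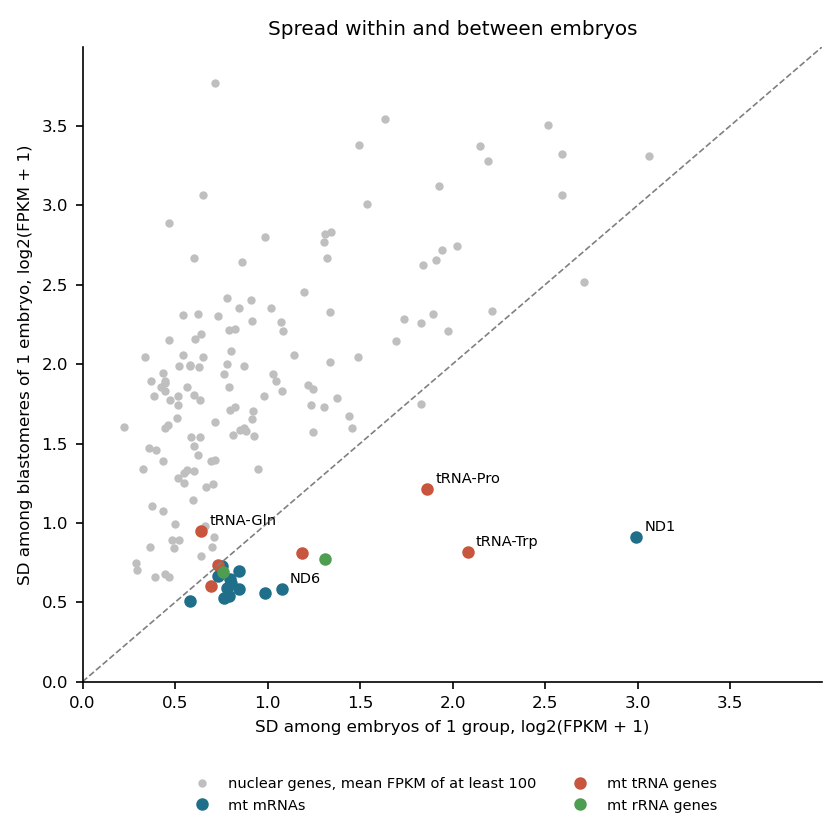
For each gene, the SD of log2(FPKM + 1) among embryos of 1 group (horizontal) is set against that among blastomeres of 1 embryo (vertical), with the diagonal dashed. Mitochondrial mRNAs (blue) lie below the diagonal with ND1 far to the right, the tRNA genes are red and the rRNA genes green, and 136 of the 140 abundant nuclear genes (grey) lie above it.

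Nuclear genes that copy, transcribe and process mitochondrial DNA were read from a list of 37, of which 36 were in the table and 24 were tested. TFAM, which packs mitochondrial DNA and opens its promoters, rose from the 2- to the 4-cell stage in both methods. Its FPKM were at or below 1.29 in all 1- and 2-cell embryos, 20.8, 111 and 100 in the IVF 4-cell embryos, 94.3, 79.3 and 116 in the PA 4-cell embryos, and 22.4 and 29.4 in the 8-cell embryos. The changes at the 4-cell stage were 5.92 ± 0.68 (adjusted p = 0.000104) in IVF and 5.96 ± 0.68 (adjusted p = 0.000165) in PA embryos, and TFAM was the 1 gene of the list called higher at this step (0.616% and 0.382% of all genes were called higher). The median of the listed genes was -0.05 in IVF embryos, beside -0.23 over all genes.

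The RNA polymerase POLRMT was at or below 0.271 FPKM in 19 of 20 embryos and at 20.1 in IVF 4-cell embryo 3, and it did not enter the tests. TFB2M, which melts the promoter for the polymerase, rose in PA 8-cell over 4-cell embryos (4.56 ± 0.74, adjusted p = 0.000518), from at most 0.0932 FPKM to 23.5. PPRC1, a coactivator of respiratory genes, rose at the same step (3.95 ± 1.05, adjusted p = 0.0201). They were the 2 of 24 tested list genes called higher there, where 6.81% of all genes were. MTPAP, the polymerase that adds poly(A) tails to mitochondrial mRNAs, rose in IVF 8-cell over 4-cell embryos (3.73 ± 0.76, adjusted p = 0.00368, with 3.72% of all genes called higher), with 12.4 FPKM against at most 0.0148. The listed genes called lower were REXO2, which degrades short RNAs, at the 4-cell stage of IVF embryos (-3.60 ± 0.86, adjusted p = 0.0468, with 0.493% of all genes called lower), and PRIMPOL, a primase of nucleus and mitochondria, at the 8-cell stage of IVF (-4.26 ± 1.07, adjusted p = 0.0166) and PA embryos (-4.35 ± 1.07, adjusted p = 0.0121), where 3.25% and 3.18% of all genes were called lower.

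Other partners of the mitochondrial transcripts were not called. TEFM, the elongation factor, was at 7.21, 24 and 0.873 FPKM in IVF 4-cell and 0.00699, 0.674 and 0.00451 in PA 4-cell embryos. LRPPRC, which binds and stabilises mitochondrial mRNAs, was at 19.1 ± 16.1 in IVF 1-cell and 1.85 ± 1.91 in IVF 4-cell embryos (SD, n = 3 each), and at 5.75 ± 2.52 and 12.3 ± 15.8 in PA embryos. Its partner SLIRP did not pass 0.193 FPKM in any embryo. Without the near-repeat blastomeres, REXO2 was called lower at the PA 4-cell stage as well (-4.33 ± 0.67, adjusted p = 0.000682). MGME1, a nuclease of mitochondrial DNA, was then called higher at the PA 8-cell stage (4.08 ± 1.17, adjusted p = 0.0308), where 8.22% of all genes were. PRIMPOL in PA 8-cell embryos then had a change of -3.82 ± 1.25 and was not called (adjusted p = 0.0606).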

How the data were processed

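The deposited table held FPKM per gene and cell. The authors mapped reads to Sscrofa11.1 with HISAT2 (also named in the submitters' processing notes), assembled transcripts with StringTie and counted with HTSeq before they computed FPKM. The labels describe Trizol extraction and a TruSeq kit, the study's methods an amplification of RNA with and without poly(A) tails. The members and lists were chosen with earlier results of these data known. All members are named where described, and of the list of nuclear genes those called and 6 with a central role (POLRMT, TFAM, TFB2M, TEFM, LRPPRC and SLIRP). Embryo means of FPKM were log2 transformed after adding 1, and the 8116 genes that reached 1 FPKM in 3 or more cells were fitted with limma 3.58.1 (R 4.3.3) over all 8 groups with a mean-variance trend. On simulated data of 8116 genes, 35 of 50 genes changed by a log2 value of 4 and 6 of 50 changed by 2 were called for IVF 4-cell over 2-cell embryos. The changed genes were drawn at random from all genes, whose median SE at this step was 0.82 against 0.59 for members. These rates are therefore not those of the members. Measures were computed in Python 3.11.15 with scipy 1.17.1, with 16 relations to stage and 8 differences between methods. For sums over members, p-values are not given. Nuclear copies were found with blastn 2.17.0. Depth is known only as the fragments recovered from the smallest step of each cell.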

Additional observations from a re-analysis of the deposited data

How the results depend on the processing

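Alternatives were a pseudocount of 0.1 or 5, no or a stricter filter, 3 scalings, log means or medians over blastomeres, fits of only the compared groups, leaving out each embryo, the 8-cell embryo or the near-repeat blastomeres, and the embryo number as a replicate block. Apart from leaving out 1 embryo, there were 132 pairs of a comparison and a setting. The count of called members stayed the same or nearly so in 122 of them. In every comparison but PA 8-cell over 4-cell embryos this count started from 0, so an unchanged count says little there. For PA 8-cell over 4-cell embryos (2 called) it was 1 with nuclear genes scaled to the same sum, under the median ratio, with the mean of log2 values and without the near-repeat blastomeres, and 0 with the mRNAs scaled to the same sum and with only the compared groups. For PA 4-cell over 2-cell embryos (0 called) it was 18 under the median ratio (7.22% of all genes were called higher). It was 4 without the near-repeat blastomeres (1.16% of all genes were called higher). When 1 embryo was left out it was 0 to 4, with 4 without PA 4-cell embryo 2. The median ratio also called 1 member in IVF 8-cell over 4-cell and 1 in IVF over PA 4-cell embryos. The cause of these changes was not tested. Scaling to the mRNA sum takes out a change that the mRNAs share, so its counts concern only changes relative to them. Where no share of all genes stands beside a count in this section, the count is not read as a result on the members. The median sister SD was 0.37 with the mRNAs scaled to the same sum and 0.44 without the near-repeat blastomeres.

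Same-number embryos deviated together in only 1 of 15 pairs of groups, PA 2-cell with PA 4-cell, the pair that holds the near-repeat blastomeres (r from 0.10 to 0.36), and elsewhere at least 1 correlation was under 0.1 (lowest -0.04). The labels do not say that a number marks a shared batch, and the replicate block gave 2 called members for PA 8-cell over 4-cell embryos (ND4 2.54 and glutamic acid tRNA 4.18) and 0 elsewhere. When 1 embryo was left out, the IVF minus PA difference ran from -0.0593 to 6.49 percentage points for the mitochondrial share, from -0.74 to 0.52 for ND1 to ND2, from -0.265 to 0.0253 for ND6 to ND5, from -0.0906 to 0.247 for rRNA to mRNA and from 0.29 to 0.47 for tRNA to mRNA (log2 ratios). Spearman's rho with stage ran from -0.329 to 0.0433 for rRNA to mRNA in IVF and from -0.27 to 0.23 for the complex IV share in PA embryos.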
